A study of Mus musculus with 16 samples.

Results

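The lysine, valine, histidine and aspartate tRNAs of the mouse prefrontal cortex comprised 85 of the 18488 rows in a small non-coding RNA table, and were taken as every row whose gene name holds tRNA-Lys-, tRNA-Val-, tRNA-His- or tRNA-Asp-. The 85 rows covered 7 anticodons and 43 isodecoder numbers. A further 363 rows were tRNAs of other amino acids. Row names give the amino acid, the anticodon in DNA letters, the isodecoder number and the gene copy, so tRNA-His-GTG-2-6 is the sixth copy of the second histidine isodecoder. Isodecoders share an anticodon but differ elsewhere in sequence, and isoacceptors carry the same amino acid on different anticodons.

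Small RNA libraries were compared between 8 PS19+/- mice and 8 WT mice, 1 library per mouse, to ask which non-coding RNAs differ in a tauopathy model. PS19+/- mice carry a mutant human tau transgene driven by the mouse prion protein promoter, next to their own tau gene, and WT mice are littermates that lack it. Per the study, the transgene was heterozygous on a mixed C57BL/6 and C3H background, and both groups were adults of about the same age with males and females in equal number. The labels give neither age nor sex, and no treatment is named. The prion protein promoter is active in many cell types and organs, so the transgene is not limited to cortical neurons. The tissue was a bulk piece of cortex, in which fewer cells of a type and less RNA per cell cannot be told apart.

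Transfer RNAs bring amino acids to the ribosome, where the anticodon at positions 34 to 36 reads the codon. They are also cut in or beside the anticodon loop, for example by angiogenin under stress, which leaves a 5′ and a 3′ fragment, and lysine, valine, histidine and aspartate tRNAs are among the known sources of 5′ fragments. Bases of these tRNAs are modified: DNMT2 methylates Asp-GTC and Val-AAC, queuosine replaces the first anticodon base of His-GTG and Asp-GTC, and an extra G that the gene does not encode is added to the 5′ end of tRNA-His. The counts do not tell whole tRNAs from their fragments.

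RefSeq, on GRCm38.p6, lists 74 nuclear genes of these 7 anticodons on 15 chromosomes, 18 of them on chromosome 13 and 12 on chromosome 3. They are 72 or 73 bases long, so gene length hardly differs between them. As the counts mix whole tRNAs with fragments and a read can count under several rows, levels of different tRNAs are not strictly comparable. A valine and a histidine gene are shown, the ones whose sequence the RefSeq promoter tables used here held in whole or in large part. They belong to the Val-CAC and His-GTG families. The rows cannot be tied to single RefSeq genes, so these are sequences of the anticodon families rather than of a given row. Capitals mark the anticodon.
n-TVcac9, Val-CAC, chr13:23446142-23446214, minus strand, all 73 bases: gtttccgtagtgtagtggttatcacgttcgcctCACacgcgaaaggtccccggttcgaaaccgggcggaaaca
n-THgtg7, His-GTG, chr3:96452495-96452556, plus strand, the first 62 of 72 bases: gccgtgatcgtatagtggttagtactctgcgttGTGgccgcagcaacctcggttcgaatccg

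The recovered reads of all rows summed to between 13.2 M and 23.1 M per library, and tRNA rows took 25.3% to 52.5% of the signal. A read that matches several rows enters these sums and shares more than once. The 3 cortex miRNAs used as markers were detected in every library, at a summed normalized count of 293975 to 1024770 in PS19 and 340987 to 950974 in WT. Marker miRNAs of other tissues were summed in the same way. The liver marker lay at 138 to 654 in PS19 and 132 to 387 in WT, the 2 muscle markers at 1799 to 13924 and 2748 to 10533, the 3 red blood cell markers at 731 to 1518 and 652 to 1411, and the 2 white blood cell markers at 2.85 to 14.7 and 1.0 to 11.5. Of the 11 markers, 8 were high enough for the limma test and 0 of them had an unadjusted p under 0.05. Each library also carries a code in the labels. All 8 PS19 codes and 2 WT codes start with G, the other WT codes with F (4) or A (2), and no source says what the letter stands for, so letter and genotype can hardly be told apart.

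Each anticodon family was led by 1 or a few isodecoders. The lead row of an anticodon, the row with the highest mean over the 16 libraries, was tRNA-Lys-CTT-2-2 at a normalized count of 15887 ± 7116 (SD, n = 16), followed by tRNA-His-GTG-2-6 at 10919 ± 2722 and tRNA-Asp-GTC-1-8 at 1831 ± 519. tRNA-Lys-TTT-1-2 reached 1093 ± 339, tRNA-Val-CAC-2-5 1016 ± 406, tRNA-Val-AAC-5-1 969 ± 396 and tRNA-Val-TAC-1-2 74.4 ± 24.6. The order was not firm between all neighbours. Lys-CTT lay above His-GTG in 12 of 16 libraries, Asp-GTC above Lys-TTT in 15 and Lys-TTT above Val-CAC in 14, and the means of all 3 pairs lay within overlapping SDs. His-GTG was above Asp-GTC in 16 of 16 libraries, by 3.45 to 8.88 times, and Val-AAC above Val-TAC in 16 of 16, by 9.05 to 23.4 times.

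**Figure D1:**
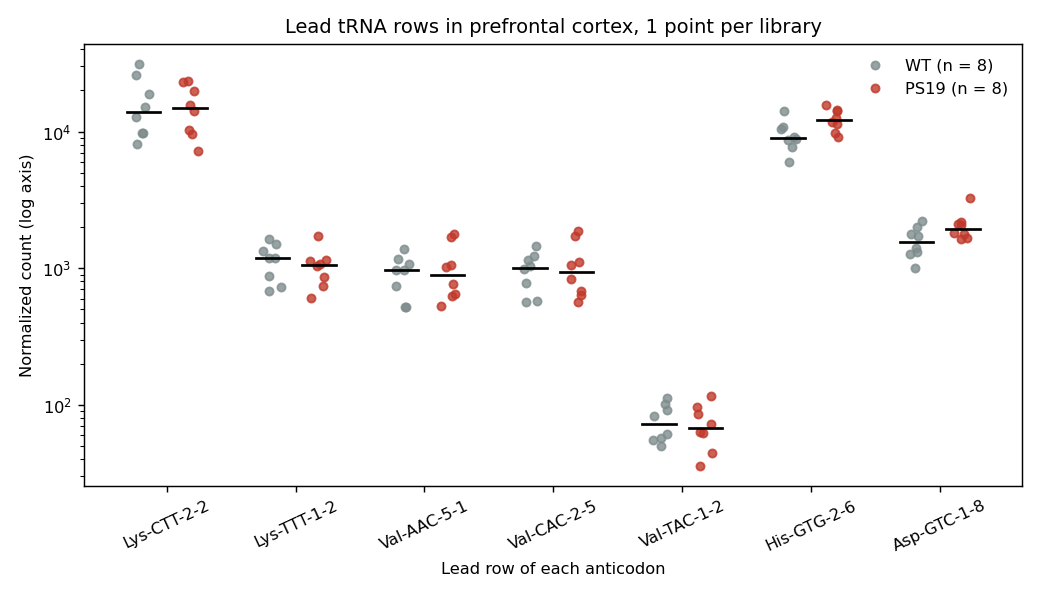
Normalized count (log axis) of the lead row of each of the 7 anticodons, 1 point per library and a black line at the group median, with WT in grey and PS19 in red (8 libraries each). All 8 PS19 points of His-GTG-2-6 and of Asp-GTC-1-8 lie above the WT median, and the groups overlap in every row.

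Copies within an isodecoder carried nearly the same values, so that rows are not independent measurements. The 8 copies of tRNA-His-GTG-2 held 3 distinct sets of values and never differed by more than 6 recovered reads in a library, or 0.0547% of the higher value. The 7 copies of tRNA-Lys-CTT-3 differed by at most 0.133%, and the 13 copies of tRNA-Asp-GTC-1 by at most 6.29%. The 3 copies of tRNA-Val-TAC-1 stood apart from this, with gaps of 9.84% to 47.0% between copies, at means of 51.9 to 74.4. Over all 85 rows there were 75 distinct sets of values and 39 near-identical sets (Pearson r of at least 0.99 and means within 2-fold).

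The families differed in how steeply they fell from the first isodecoder to the next. In Lys-CTT, tRNA-Lys-CTT-2-2 exceeded the lead row of isodecoder 3 by a median of 1.27 times. It fell below that row in both genotypes, at lowest ratios of 0.911 in PS19 and 0.939 in WT. tRNA-His-GTG-2-6 was 29.4 to 58.7 times as high as tRNA-His-GTG-3-1 and 37.1 to 64.7 times as high as tRNA-His-GTG-1-1. tRNA-Asp-GTC-1-8 was 3.29 to 5.01 times as high as tRNA-Asp-GTC-2-1. The lysine families also had the longest tails. Of the 9 rows under a mean of 5, which were not tested, 5 were Lys-CTT rows, 3 were the copies of tRNA-Lys-TTT-4 and 1 was tRNA-Val-CAC-5-1, and none of them had more than 7 recovered reads in any library.

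**Figure D2:**
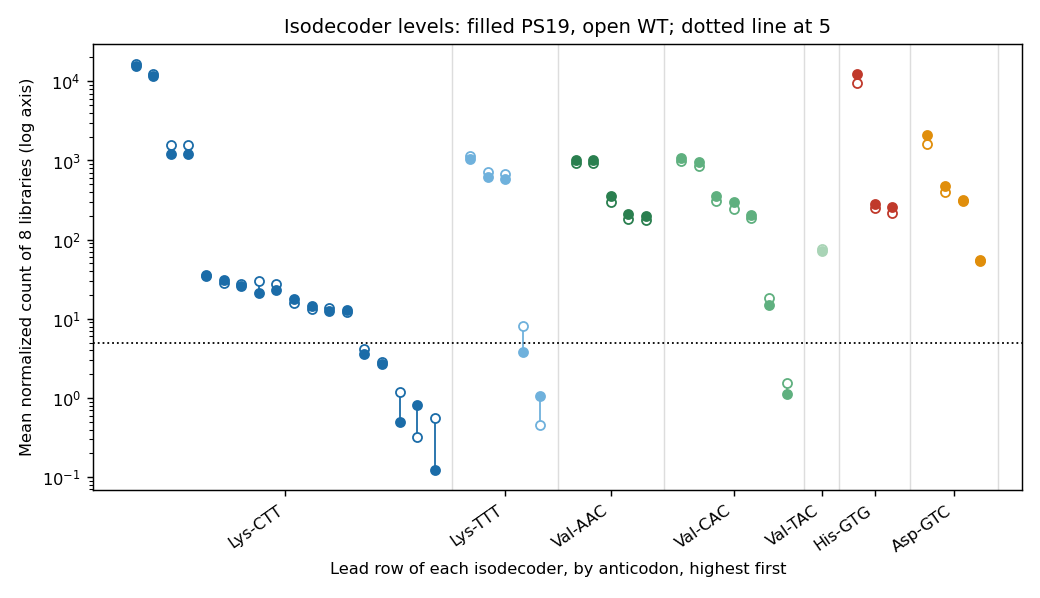
Mean normalized count (log axis) of the lead row of each of the 43 isodecoders, by anticodon and from high to low, with filled points for PS19 and open points for WT (8 libraries each) and a dotted line at the minimum mean of 5. Lys-CTT and His-GTG hold the highest levels, and the widest gaps between genotypes are among rows near or under the line.

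No row of these tRNAs differed between PS19 and WT after adjustment for the 6024 features tested. Histidine and aspartate rows lay mostly higher in PS19 and lysine rows mostly lower, none of them past the adjusted test. Of the 76 rows with a mean of at least 5, 46 were higher and 30 lower in PS19. The median log2 difference was 0.07, against -0.02 over all features and 0.04 over the 329 tested rows of other tRNAs. Over the lead rows of the 36 tested isodecoders it was 0.04, with 21 higher and 15 lower, and with near-identical rows counted once it was 0.02. By limma, 0 rows had an adjusted p under 0.05 (smallest adjusted p = 0.9998) and 9 had an unadjusted p under 0.05, 8 of them higher in PS19. That is 11.8% of the tested rows, beside 4.0% of all features (1.86% higher and 2.14% lower in PS19), but it comes to 2 of 32 near-identical sets (6.25%). These were the 8 copies of tRNA-His-GTG-2 and the single row tRNA-Lys-TTT-3-1, which reached the minimum mean through WT alone, so that its direction was fixed by the filter. DESeq2 and edgeR on recovered reads each called 0 of these rows at an adjusted p, beside 0.249% and 0 of all features, and 9 at an unadjusted p, beside 4.70% and 4.40%. The groups of 8 libraries overlapped in all 76 rows, whereas they did not overlap in 0.0996% of all features.

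The histidine rows, whose tRNA decodes both histidine codons, were higher in PS19 in 10 of 10 cases (median log2 difference 0.39), and by isodecoder in 3 of 3 (median 0.32). tRNA-His-GTG-2-6 ranged from a normalized count of 9102 to 15692 with a median of 12172 in PS19, and from 6030 to 14167 with a median of 8981 in WT. The groups overlapped over much of this range, although 8 of 8 PS19 libraries lay above the WT median. The means of 12342 ± 2326 (SD, n = 8) and 9496 ± 2416 (SD, n = 8) differed by 0.39 ± 0.19 (SE) on the log2 scale (limma unadjusted p = 0.0465, adjusted p = 0.9998, two-sided exact permutation p = 0.0291).

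This unadjusted call was lost in most fits that left out 1 library, while the direction stayed. The unadjusted limma p of tRNA-His-GTG-2-6 stayed under 0.05 in 5 of 16 fits that each left out 1 library, and rose above it without any 1 of PS19 replicates 2 to 7 or WT replicates 3, 4, 5, 6 or 8, up to 0.108 without WT replicate 8, with log2 differences of 0.31 to 0.48 throughout. Among the libraries whose code begins with G, 8 PS19 and 2 WT, the log2 difference was 0.09 (limma unadjusted p = 0.771), with the 2 WT libraries at 9137 and 14167. Scaled to the total of all tRNA rows it was 0.38 (limma unadjusted p = 0.0654), and with every row above 0 in at least 2 libraries in the fit it was 0.39 (limma unadjusted p = 0.0746). The lower histidine isodecoders showed the same sign without passing the test: tRNA-His-GTG-1-1 averaged 262 ± 64.5 in PS19 and 214 ± 73.0 in WT (log2 difference 0.32 ± 0.23), and tRNA-His-GTG-3-1 283 ± 68.8 and 248 ± 87.2 (0.24 ± 0.24).

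The aspartate rows, whose tRNA is a substrate of both DNMT2 and the queuosine enzyme, were higher in PS19 in 15 of 16 cases (median log2 difference 0.38). None of the 16 had an unadjusted limma p under 0.05, beside 4.0% of all features. As 13 of these rows are copies of tRNA-Asp-GTC-1, the count by isodecoder was 3 higher and 1 lower, with a median of 0.16. tRNA-Asp-GTC-1-8 ranged from 1646 to 3286 with a median of 1949 in PS19, and from 1011 to 2209 with a median of 1562 in WT. The groups overlapped, 8 of 8 PS19 libraries lay above the WT median, and PS19 replicate 7 stood well above the rest of its group. The means of 2070 ± 533 and 1592 ± 404 (SD, n = 8 each) differed by 0.39 ± 0.20 (SE) on the log2 scale (limma unadjusted p = 0.0685, two-sided exact permutation p = 0.0418). Without PS19 replicate 7 the difference was 0.29 (limma unadjusted p = 0.158), and without WT replicate 6 or WT replicate 7 it was 0.44 or 0.46 (limma unadjusted p = 0.0495 and 0.0345). tRNA-Asp-GTC-1-1, a copy of the same isodecoder, gave 0.39 ± 0.20 (unadjusted p = 0.0669).

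The other aspartate isodecoders had smaller differences by genotype. tRNA-Asp-GTC-2-1 averaged 476 ± 85.3 in PS19 and 398 ± 80.7 in WT (log2 difference 0.27 ± 0.19, limma unadjusted p = 0.167), with 7 of 8 PS19 libraries above the WT median. tRNA-Asp-GTC-4-1 gave a log2 difference of 0.05 ± 0.20, and tRNA-Asp-GTC-3-1, the lowest of them at means of 55.1 and 53.4, one of -0.01 ± 0.25. Whether these differ from isodecoder 1 in their response was not tested.

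**Figure D3:**
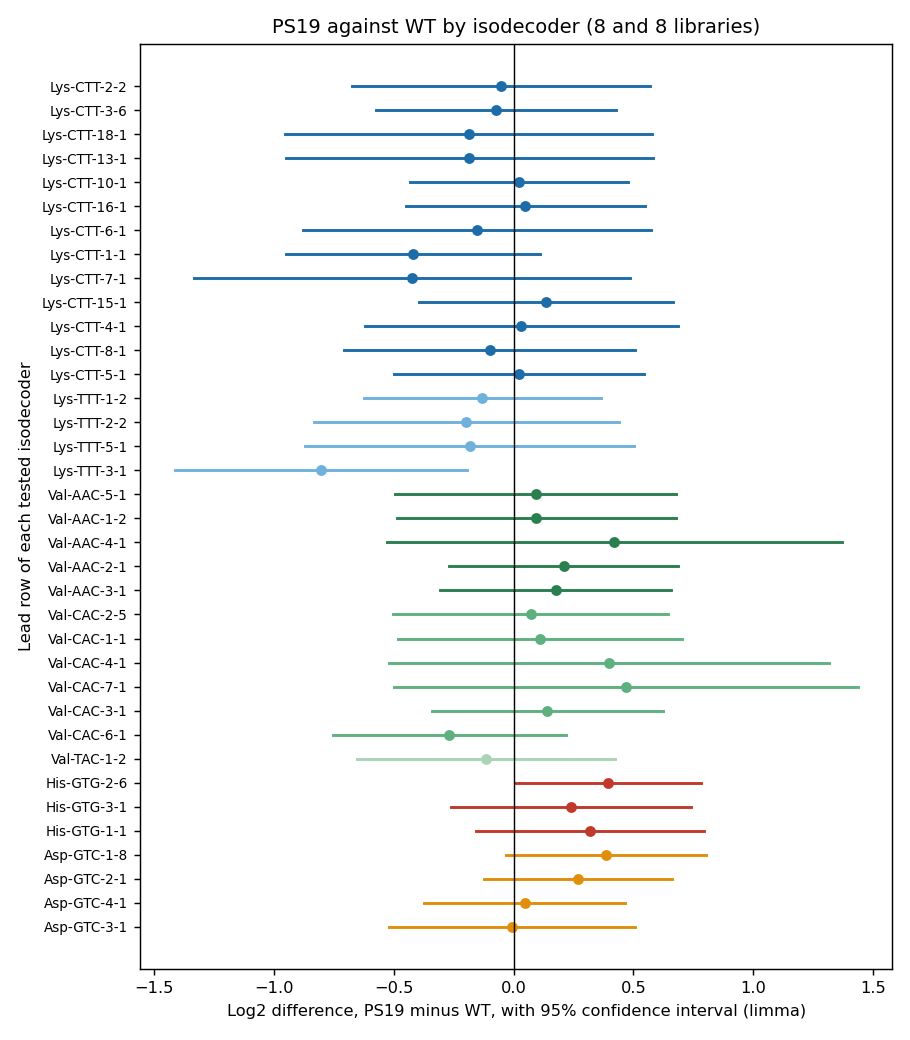
Log2 difference between PS19 and WT (8 libraries each, positive values higher in PS19) with its 95% confidence interval by limma, for the lead row of each of the 36 tested isodecoders. The intervals of His-GTG-2-6 and Lys-TTT-3-1 exclude 0 before adjustment, and all others include it.

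The lysine rows leaned lower in PS19, in 15 of 20 Lys-CTT rows (median log2 difference -0.07) and 9 of 9 Lys-TTT rows (median -0.14), with tRNA-Lys-TTT-3-1 left out because it reached the minimum mean through WT alone. Counted by isodecoder, 8 of 13 were lower in Lys-CTT and 3 of 3 in Lys-TTT (medians -0.07 and -0.18). Lys-CTT pairs with AAG codons and Lys-TTT, whose wobble uridine is modified, mainly with AAA codons. tRNA-Lys-CTT-2-2 ranged from 7195 to 23592 with a median of 14848 in PS19, and from 8093 to 31168 with a median of 13951 in WT. The groups overlapped almost fully, with the mean slightly lower and the median slightly higher in PS19 (means 15384 ± 6246 and 16390 ± 8302, SD, n = 8 each). The log2 difference was -0.05 ± 0.30 (SE), with a 95% confidence interval of -0.68 to 0.57 (limma unadjusted p = 0.861, two-sided exact permutation p = 0.874). Among the libraries with a G code it was -0.61, and without 1 library it ranged from -0.18 to 0.10. A difference inside the interval over all libraries was not detectable with 8 libraries per group.

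tRNA-Lys-TTT-1-2 ranged from 609 to 1724 with a median of 1057 in PS19, and from 678 to 1646 with a median of 1181 in WT. Its groups also overlapped almost fully, and they differed by -0.13 ± 0.24 (SE) on the log2 scale, with an interval of -0.62 to 0.36 (limma unadjusted p = 0.592). Of the 8 PS19 libraries, 1 lay above the WT median, and without 1 library the difference ranged from -0.24 to -0.03. The ratio of tRNA-Lys-CTT-2-2 to tRNA-Lys-TTT-1-2 within a library averaged 14.7 ± 3.87 in PS19 and 14.2 ± 5.38 in WT (SD, n = 8 each), and the difference between these ratios lay within the spread between mice.

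Of the 30 tested lysine rows, 1 had an unadjusted limma p under 0.05 (3.33%, beside 4.0% of all features). This was the scarce tRNA-Lys-TTT-3-1, at 2 to 14 recovered reads per library. It ranged from a normalized count of 2.91 to 4.92 with a median of 3.98 in PS19, and from 3.73 to 12.8 with a median of 8.29 in WT. The groups overlapped between 3.73 and 4.92, and 0 of 8 PS19 libraries lay above the WT median. The means of 3.82 ± 0.731 and 8.05 ± 3.72 (SD, n = 8 each) differed by -0.80 ± 0.29 (SE) on the log2 scale of value plus 1 (limma unadjusted p = 0.0124, adjusted p = 0.9998, two-sided exact permutation p = 0.00839). Its mean over all libraries was 5.94, just above the minimum of 5 and reached only through the WT libraries, so that a row passing in this way had to be higher in WT, while tRNA-Lys-CTT-14-1, at means of 3.65 and 4.11, fell just below. The scarce tRNA-Lys-CTT-1-1 averaged 21.2 ± 5.91 in PS19 and 30.0 ± 12.03 in WT (log2 difference -0.42 ± 0.26, limma unadjusted p = 0.116), and passed 0.05 only without WT replicate 8 (0.0429) or with the code letter as a term (0.0244) or held at G (0.0199) among the settings tried.

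No valine row had an unadjusted limma p under 0.05 (0 of 20 tested, beside 4.0% of all features). The 7 Val-AAC rows and 9 of 10 Val-CAC rows were higher in PS19 (median log2 differences 0.18 and 0.07) and the 3 Val-TAC rows lower (-0.07). tRNA-Val-CAC-2-5 ranged from 566 to 1873 with a median of 944 in PS19, and from 562 to 1458 with a median of 1008 in WT. tRNA-Val-AAC-5-1 ranged from 530 to 1786 with a median of 899 in PS19, and from 516 to 1391 with a median of 970 in WT. In both rows the groups overlapped fully at the low end, and the mean was higher but the median lower in PS19, where replicates 1 and 2 were the highest. Their log2 differences were 0.07 ± 0.28 and 0.09 ± 0.28 (SE; limma unadjusted p = 0.798 and 0.746). Each changed sign in 4 of 16 fits that left out 1 library.

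tRNA-Val-TAC-1-2, the scarcest valine family, ranged from 36.1 to 116 with a median of 67.8 in PS19 and from 50.2 to 113 with a median of 72.2 in WT, with a log2 difference of -0.11 ± 0.26 (limma unadjusted p = 0.661). The PS19 range thus enclosed that of WT. The largest valine differences were in the isodecoders that varied most between mice. tRNA-Val-CAC-7-1 spanned 19.1-fold over the 16 libraries, with means of 298 ± 180 and 246 ± 179 (log2 difference 0.47 ± 0.47), and tRNA-Val-AAC-4-1 spanned 17.4-fold, with 353 ± 206 and 302 ± 218 (0.42 ± 0.46).

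Across libraries, the lysine and valine lead rows rose and fell together, and those with the histidine and aspartate lead rows varied more from pair to pair. Pearson correlations of log2 values with the genotype means removed were computed for the 21 pairs of lead rows, with two-sided permutation tests (100000 permutations) adjusted over the 21 pairs. All 10 pairs among Lys-CTT, Lys-TTT, Val-AAC, Val-CAC and Val-TAC had r from 0.69 to 0.999 and Spearman rho from 0.72 to 0.99 (adjusted permutation p from 0.00021 to 0.0075 for r and from 0.000105 to 0.00491 for rho). Without the 2 libraries farthest from the median, r was 0.67 to 0.999, and within each genotype it was 0.63 to 0.999 in PS19 and 0.70 to 0.998 in WT. The points of each pair share the library, its depth and its size factor.

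The 11 pairs with His-GTG or Asp-GTC had r from -0.32 to 0.57. Of these, Lys-CTT with His-GTG had r = 0.57 (adjusted permutation p = 0.0384) and rho = 0.52 (adjusted permutation p = 0.0789). Its r was 0.37 without the 2 libraries farthest from the median, and whether the relation rested on those libraries was not tested. Within WT this pair had r = 0.75, above the lowest lysine and valine pair there, and within PS19 r = 0.31. His-GTG with Asp-GTC had r = 0.29 and rho = 0.20 (adjusted permutation p = 0.395 and 0.647), with r = 0.62 within WT and -0.20 within PS19. The difference between the correlations themselves was not tested.

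The closest pair was formed by valine rows of different anticodons. tRNA-Val-CAC-2-5 and tRNA-Val-AAC-5-1 had r = 0.9989, and their ratio within a library stayed between 1.02 and 1.10 while they varied by 3.33-fold and 3.46-fold over the libraries. tRNA-Val-AAC-4-1 and tRNA-Val-CAC-4-1 kept a ratio of 0.897 to 1.02. A read that matches several rows is counted under each, and how many reads these rows share was not tested.

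**Figure D4:**
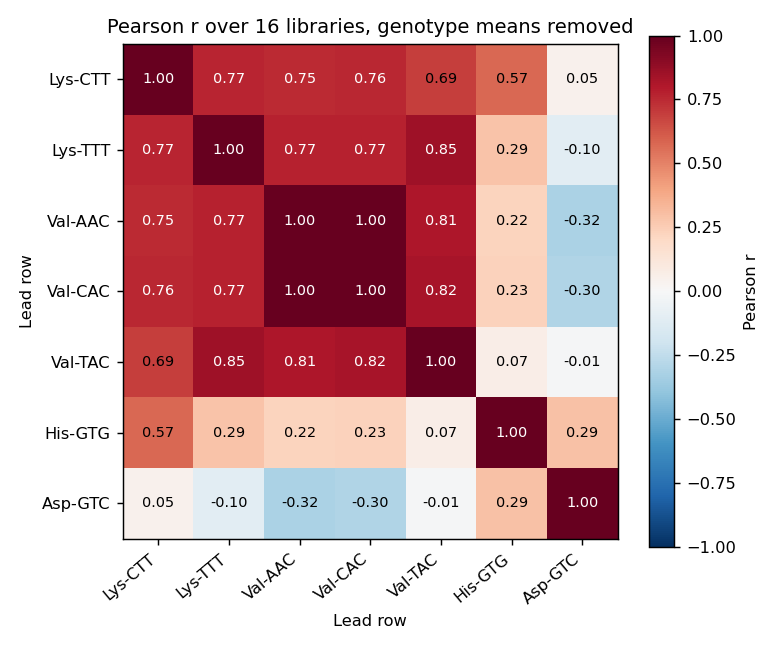
Pearson r between the lead rows of the 7 anticodons over 16 libraries (log2 values, genotype means removed), from -1 in blue to 1 in red. The block of lysine and valine rows holds r of 0.69 to 0.999, and the pairs with His-GTG or Asp-GTC lie between -0.32 and 0.57.

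Groups of tRNAs that share a modification or a known fragment were set beside these families. Among the substrates of DNMT2 (Asp-GTC, Val-AAC and Gly-GCC), 0 of 38 tested rows had an unadjusted limma p under 0.05, beside 4.0% of all features. In all, 27 were higher in PS19 (median log2 difference 0.16), and 13 of the 27 were copies of tRNA-Asp-GTC-1. Gly-GCC, the one that is not a lysine, valine, histidine or aspartate tRNA, had a median of -0.10. Among the queuosine tRNAs (Asp-GTC, His-GTG, Asn-GTT and Tyr-GTA), 9 of 48 tested rows were higher at an unadjusted p, beside 1.86% of all features, and 8 of the 9 were the near-identical copies of tRNA-His-GTG-2. The ninth was tRNA-Tyr-GTA-6-1, named here after its values were seen, at 9914 ± 1729 in PS19 and 7422 ± 3062 in WT (SD, n = 8 each). The Asn-GTT rows were higher in 11 of 11 cases with a median of 0.13, whereas Tyr-GTA had a median of -0.11.

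The tRNAs known as sources of 5′ fragments, 10 anticodons that leave out Val-TAC and add Gly-GCC, Gly-CCC, Glu-CTC and Glu-TTC, had 9 of 117 tested rows (7.69%, beside 4.0% of all features) at an unadjusted p under 0.05, and a median log2 difference of 0.10. These 9 were again the 8 near-identical copies of tRNA-His-GTG-2 and tRNA-Lys-TTT-3-1, with its direction fixed by the filter. Of the 329 tested rows of other amino acids, 13 were higher at that p (3.95%, beside 1.86% of all features) and 0 were lower (beside 2.14%). These rows were not merged into near-identical sets, so the 13 may hold copies of fewer tRNAs. No row of any of these groups had an adjusted p under 0.05.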

How the data were processed

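As the methods of the study describe, the authors isolated small RNA from prefrontal cortex, prepared libraries with an NEBNext small RNA kit, sequenced them as single-end reads and assigned the reads with COMPSRA, a pipeline around STAR. The submitters' processing notes name STAR 2.5.3a, DESeq2 1.42.1 and the build mm10. The deposited values were a normalized signal per row and library, namely counts that the authors divided by 1 size factor per library. Whole reads were recovered from the smallest step of each library (100% of values whole within 1e-06 of a read), which is weaker evidence in WT replicates 4 and 6, where a read is worth nearly 1. A read matching several rows is counted under each. The table also held log2 fold changes, their errors and a Wald score that the authors computed, with p-values and adjusted p-values, none of them used. The number of per-library columns left unused was 0.

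The members, lists and tests were chosen with earlier results of these data known. Values were tested as log2(value + 1) with limma 3.58.1 (trend) in R 4.3.3, genotype as the only term and all 6024 features with a mean of at least 5 in the fit, and adjusted by Benjamini-Hochberg over all of them. This scale understates the change of low rows. The script was tested on simulated data. Exact permutation tests were two-sided over the 12870 assignments of 8 and 8 libraries, on log2(value + 1). Correlations used numpy 2.4.6 and scipy 1.17.1. Rows with identical values were counted once where stated. The rows named are the lead row of each anticodon and isodecoder, and the 5 with the smallest limma p, 1 per isodecoder. Libraries within a group are separate mice per the study, and the effect of depth on single rows was not tested.

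Alternatives were DESeq2 1.42.0, edgeR 4.0.16 (quasi-likelihood, TMM), scaling to the library total or the tRNA total, other pseudocounts (0.5 and 5), a filter that kept rows above 0 in 2 or more libraries, a minimum mean of 20, the replicate number as a block, the code letter as a term, only the G libraries, near-identical rows counted once, and leaving out each library. Sequences and gene positions came from RefSeq tables on GRCm38.p6, and no other tRNA sequence was used here.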

Additional observations from a re-analysis of the deposited data

Results flagged for a closer look

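In 2 of 22 group values examined, 1 library lay farther from the other 7 of its group than Dixon's test allows at the 95% level, which chance brings about in roughly 1 of 20 groups. tRNA-Asp-GTC-1-8 was 3286 in PS19 replicate 7 while the PS19 library closest to it was at 2189, so that this gap made up 0.669 of the PS19 range. tRNA-Lys-CTT-1-1 was 34.4 in PS19 replicate 5 while the closest PS19 library was at 24.7, and the gap made up 0.544 of the range.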

How the results depend on the processing

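The number of rows with an adjusted p under 0.05 was 0 under every setting tried, and the number with an unadjusted p under 0.05, 9 by limma, was the least stable value. It was 9 by DESeq2 (4.70% of all features), edgeR (4.40%), scaling to the library total (3.04%) and pseudocounts of 0.5 and 5 (3.97% and 4.08%), and 8 with a mean of at least 20 (5.42%), but 1 with scaling to the total of all tRNA rows (2.32% of all features) or with every row above 0 in at least 2 libraries kept (3.98%), 2 with the code letter as a term (2.06% of all features), with only the G libraries (2.01%) or with near-identical rows counted once (6.25% of 32 sets), and 1 to 22 over the 16 fits without 1 library (2.84% to 5.33% of all features). It was 22 without WT replicate 7 (4.85% of all features), 2 without WT replicate 8 (2.84%), 1 without PS19 replicates 2 to 7 or WT replicates 3 to 5, and 9 otherwise, of which 8 were Asp-GTC rows without WT replicate 6. The code letter as a term and the G libraries alone turned the direction of tRNA-Val-CAC-2-5 (-0.13), tRNA-Val-AAC-5-1 (-0.13) and tRNA-Val-TAC-1-2 (0.0035), none of them called. They gave lysine rows lower values in PS19 (tRNA-Lys-CTT-2-2 -0.61, tRNA-Lys-TTT-1-2 -0.24, tRNA-Lys-CTT-1-1 -0.96 and tRNA-Lys-TTT-3-1 -1.17). The last pair had an unadjusted limma p under 0.05, but tRNA-Lys-TTT-3-1 reached the minimum mean through WT alone, which fixed its direction. Both settings gave the same differences, as only G codes occur in both genotypes, so they are not separate checks. Without 1 library the log2 difference ranged from -0.18 to 0.10 for tRNA-Lys-CTT-2-2, from -0.064 to 0.18 for tRNA-Val-CAC-2-5, from -0.043 to 0.21 for tRNA-Val-AAC-5-1, from -0.22 to 0.013 for tRNA-Val-TAC-1-2 and from -0.02 to 0.18 for the median over all tested rows. The cause of these shifts was not tested, except that counting near-identical rows once removes copies by construction. No label ties same-numbered libraries to a shared origin, their deviations from the group means correlated by 0.0446 to 0.456 (replicates 2 and 4 under 0.1), and not every library correlated best with its own number, so the numbers were not taken as pairs. With the replicate number as a block the count was 22, the 13 copies of tRNA-Asp-GTC-1 being added, with log2 differences of the lead rows as before and 6.96% of all features called.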
